A study of Mus musculus with 22 samples.

Results

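The genes described here are the transcription factors of the Hippo-YAP pathway and some of their target genes: Yap1, Wwtr1, Tead1, Tead4, Cyr61, Ctgf, Ankrd1, Amotl2, Lats2 and Ajuba. They were found by gene name in the deposited expression table, where these 10 names took 11 of 52636 rows, because Lats2 was listed 2 times. All 11 rows passed the filter on low values in each comparison and are followed through the 22 libraries. Each library holds bulk RNA from organoids, 3-dimensional cultures grown from intestinal crypts, some of them after exposure to cold atmospheric plasma (CAP), a partly ionized gas that forms reactive species in the medium.

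The organoids came from the duodenum of adult wild-type mice of the outbred CD1 strain, 2 months old, and each line was derived from 1 mouse. The study compared untreated cultures (lines 1 to 4, n = 4) with 6 treated groups of lines 1, 2 and 4 (n = 3 each). All cultures, untreated included, had been frozen, thawed and replated with the ROCK inhibitor Y-27632, and grew in medium with EGF, Noggin and R-spondin 1. By the study's methods, the inhibitor was present for the first 2 days. Whether the medium given from day 2 held it is not stated, so its presence up to collection may differ between groups. In direct CAP, a helium plasma jet at a moderate dose was applied to the culture 1 day after replating, and the exposed medium stayed on for 30 min or 24 h. For indirect CAP, organoids received medium taken from another organoid culture that had been treated, and for plasma-activated medium (PAM) they received medium treated without organoids. Both were given for 24 h, either from day 1 with freshly made medium or from day 2. By the study's legends, the medium given from day 2 had been made at day 1. Age of the medium and day of exposure thus cannot be told apart. By the design, cultures were collected at day 3, so organoids exposed from day 1 had a day in fresh medium before collection and those exposed from day 2 had none. The sample labels give 30 minutes and 24 hours for the indirect and PAM groups where the study's own column headings give day 1 and day 2, and the latter are used here. The sources differ on when the 30-min group was collected, giving both an early time after treatment and the common end at day 3. By the labels, the organoids of line 1 were at passage 12, those of line 2 at passage 14 and those of lines 3 and 4 at passage 4. The study's methods give passage 2 in place of 4. They list male mice for the lines at passages 12 and 14 and female mice for those at passage 2. Passage, sex and mouse thus cannot be told apart.

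In the Hippo pathway, the kinases MST1 and MST2 activate LATS1 and LATS2, which phosphorylate the coactivators YAP (Yap1) and TAZ (Wwtr1) and keep them out of the nucleus. Without this phosphorylation, YAP and TAZ enter the nucleus and bind DNA through the TEAD factors, and Cyr61, Ctgf, Ankrd1 and Amotl2 are among the target genes most often used as a readout. Lats2 and Amotl2 are both targets and inhibitors, a feedback loop. In the intestine, YAP is known for its part in regeneration after injury, when the crypt epithelium takes on a fetal-like state. Most of this control acts on the place and phosphorylation of the proteins, which RNA levels do not measure.

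All values are counts of reads scaled to a total of 20 M per library (M for mega), not divided by gene length, and are called normalized reads below. The depth of the libraries, estimated from the spacing of the scaled values, was 19.38 to 28.68 M reads. The untreated libraries of lines 1 and 2 did not behave as their labels say. Over all genes, deviations from the group mean correlated with a median r of 0.56 between treated libraries of the same line (45 pairs). The untreated library labelled line 1 correlated with the treated libraries of line 1 at a median of 0.08 and with those of line 2 at 0.54, whereas that labelled line 2 gave 0.13 with line 2 and 0.35 with line 1. Tests that do not use the line are not touched by these labels, but calls against untreated are also given without both libraries where they changed. Epithelial markers (8 of 8 detected) summed to between 118766 and 200076 normalized reads in the 22 libraries, while fibroblast markers (8 genes) summed to 13 to 45, smooth muscle markers to 4 to 26, endothelial markers to 2 to 28 and immune markers to 19 to 99. The fibroblast marker Lum was at 0 throughout. In the 9 libraries with 24 h of exposure starting at day 1, 3 of 4 stem cell markers and 1 of 4 Paneth cell markers fell, none of the genes in 9 other marker lists passed the threshold given below, and 1 of 3 immune markers (Cd68) rose. Summed stem cell markers were at 28399 to 33368 in untreated libraries and at 650 to 1925 after PAM from day 2, and summed proliferation markers at 14910 to 20315 and 2339 to 5465. The share of mitochondrial reads lay between 0.668% and 1.54%, and was lower in both groups from day 2 (0.668% to 0.88%) and in PAM from day 1 (0.789% to 1.02%) than in untreated libraries (1.24% to 1.54%). Because these are bulk libraries, fewer cells of a type and less RNA per cell cannot be told apart, and the part of these shifts in the results below was not tested.

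The DNA around the starts of these genes was searched for the motif that TEAD factors are known to bind. RefSeq windows of 300 bases (250 before and 50 from the transcription start, build GRCm38.p6) matched 7 of the 10 genes, Yap1, Wwtr1, Cyr61, Ankrd1, Amotl2, Lats2 and Ajuba. The TEAD motif GGAATG, on either strand, lay in a window of all 7 and in 8 of their 9 windows, against 14.7% of all 32851 windows. Wwtr1 has 2 overlapping windows that share 1 motif, and the second start of Lats2 had no match. The AP-1 motif TGANTCA, present in 7.81% of all windows, was in none of the 9. Such a match is a run of letters and does not show binding. Distances are from RefSeq starts. The gene spans given further on are from another annotation (GENCODE), and those of Ankrd1, Amotl2 and Lats2 contain the matches of these genes. Of the other pathway genes described further on, 4 of 18 Hippo kinases and upstream regulators with a window, 6 of 9 YAP and TEAD partners, 3 of 11 other YAP target genes and 4 of 11 actin and SRF genes held the TEAD motif. The windows of Ankrd1 and Cyr61 are shown whole, as the former target overlapped its untreated values in each treated group and the latter in none. Both are written 5′ to 3′ on the strand of the gene, with GGAATG, or its reverse complement, in capitals. The window of Ankrd1 is chr19:36119795-36120094 and that of Cyr61 chr3:145649936-145650235, both on the minus strand.
Ankrd1: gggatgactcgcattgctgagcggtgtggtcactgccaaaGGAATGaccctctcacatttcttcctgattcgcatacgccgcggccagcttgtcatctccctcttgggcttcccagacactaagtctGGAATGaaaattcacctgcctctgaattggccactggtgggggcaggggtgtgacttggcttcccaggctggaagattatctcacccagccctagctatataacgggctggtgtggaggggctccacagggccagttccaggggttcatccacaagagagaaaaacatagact
Cyr61: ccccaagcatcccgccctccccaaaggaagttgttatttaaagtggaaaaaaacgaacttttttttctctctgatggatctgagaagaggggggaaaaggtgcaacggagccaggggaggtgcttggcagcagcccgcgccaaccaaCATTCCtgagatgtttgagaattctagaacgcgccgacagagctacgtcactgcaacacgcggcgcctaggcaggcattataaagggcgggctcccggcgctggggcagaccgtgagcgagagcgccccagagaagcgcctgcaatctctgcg
The matches of the other members are shown with the bases around them, in the same manner, to let them be compared.
Yap1, 141 bases before the start, chr9:8004710-8004759, minus strand: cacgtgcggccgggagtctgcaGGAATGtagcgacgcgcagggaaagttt
Wwtr1, 136 bases before its first start, chr3:57576019-57576068, minus strand: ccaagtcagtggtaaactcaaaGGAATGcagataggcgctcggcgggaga
Amotl2, 65 bases before the start, chr9:102717717-102717766, plus strand: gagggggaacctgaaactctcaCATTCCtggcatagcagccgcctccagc
Lats2, 4 bases past its first start, chr14:57746092-57746141, minus strand: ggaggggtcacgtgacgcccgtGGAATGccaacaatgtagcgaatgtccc
Ajuba, 186 bases before the start, chr14:54577820-54577869, minus strand: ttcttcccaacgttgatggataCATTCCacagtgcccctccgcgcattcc
Ajuba, 164 bases before the start, chr14:54577798-54577847, minus strand: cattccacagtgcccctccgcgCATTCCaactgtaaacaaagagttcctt

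**Figure D1:**
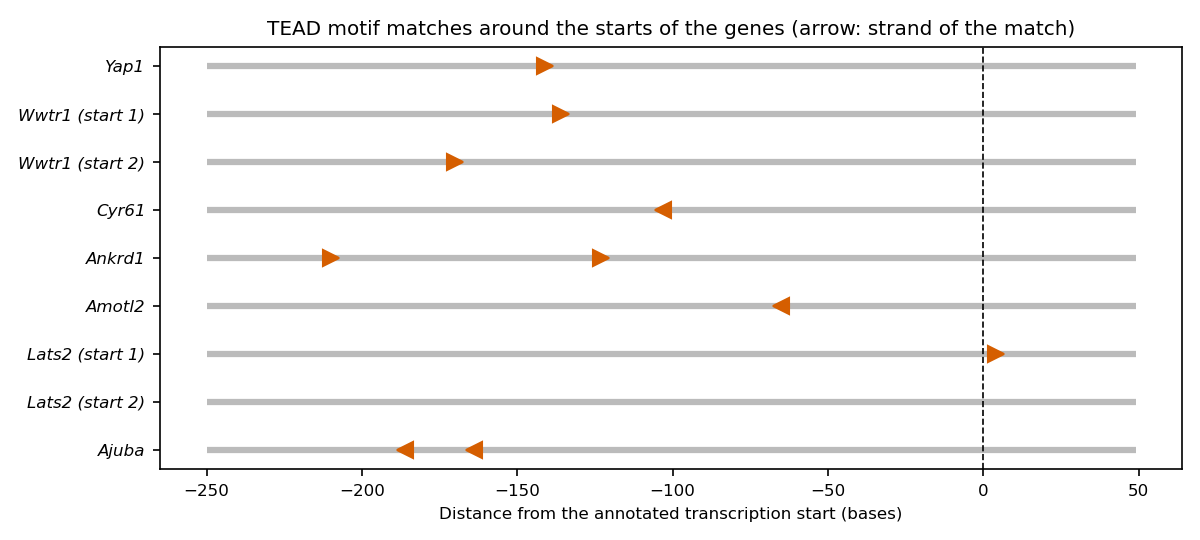
Distance in bases (horizontal axis) of each TEAD motif match from the annotated transcription start (dashed line) in the 9 windows of 7 genes (rows); arrows point right for GGAATG on the strand of the gene and left for the opposite strand. Every match except that of Lats2 lies between 65 and 210 bases before the RefSeq start.

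In untreated organoids, Yap1 had the highest level per length, at 297 ± 9.08 normalized reads per kb of exon (SD, n = 4). Ajuba (145 ± 52.0) and Tead1 (110 ± 19.6) came next, with ranges that overlapped each other but neither that of Yap1 nor that of Cyr61. Cyr61 (67.1 ± 5.52) and Amotl2 (65.1 ± 6.41) did not differ beyond their spread, nor did Ctgf (39.6 ± 29.7), Wwtr1 (35.7 ± 15.7), Lats2 (33.4 ± 7.65) and Tead4 (24.7 ± 9.66) among themselves. The second row named Lats2 stood at 84.8 ± 8.40. Reads may be split or dropped between both rows, so the place of Lats2 in this order is uncertain. Ankrd1 was lowest, at 7.28 ± 3.89. Thus YAP mRNA exceeded TAZ mRNA, and Tead1 exceeded Tead4, in each untreated library.

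The first comparison asked which of these genes differed from untreated organoids after 24 h of exposure from day 1, with the 9 libraries of direct CAP, indirect CAP and PAM pooled. These come from 3 lines, which the test counts as separate samples. Wwtr1, Tead4, Ctgf and Ajuba rose past the threshold, an adjusted p under 0.01 and a change of at least 1 on the log2(value + 1) scale. These are 4 of 11 rows, while 6.34% of all 18490 genes tested passed in either direction. The members and the lists further on were chosen with earlier results of these data known. Such shares, here and below, thus describe these genes and do not test them as a set. The groups did not overlap for 7 of 11 rows, against 17.7% of all genes, with Cyr61, Ctgf, Amotl2, Ajuba and both rows of Lats2 higher and Yap1 lower in each treated library. Without the minimum fold and with an adjusted p of less than 0.05, 9 of 11 rows passed, against 33.5% of all genes, and only Tead1 and Ankrd1 did not. The median log2 fold change of the 11 rows was 0.93, and that of all genes tested was -0.05. The plot of values in every library shows these differences line by line.

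**Figure D2:**
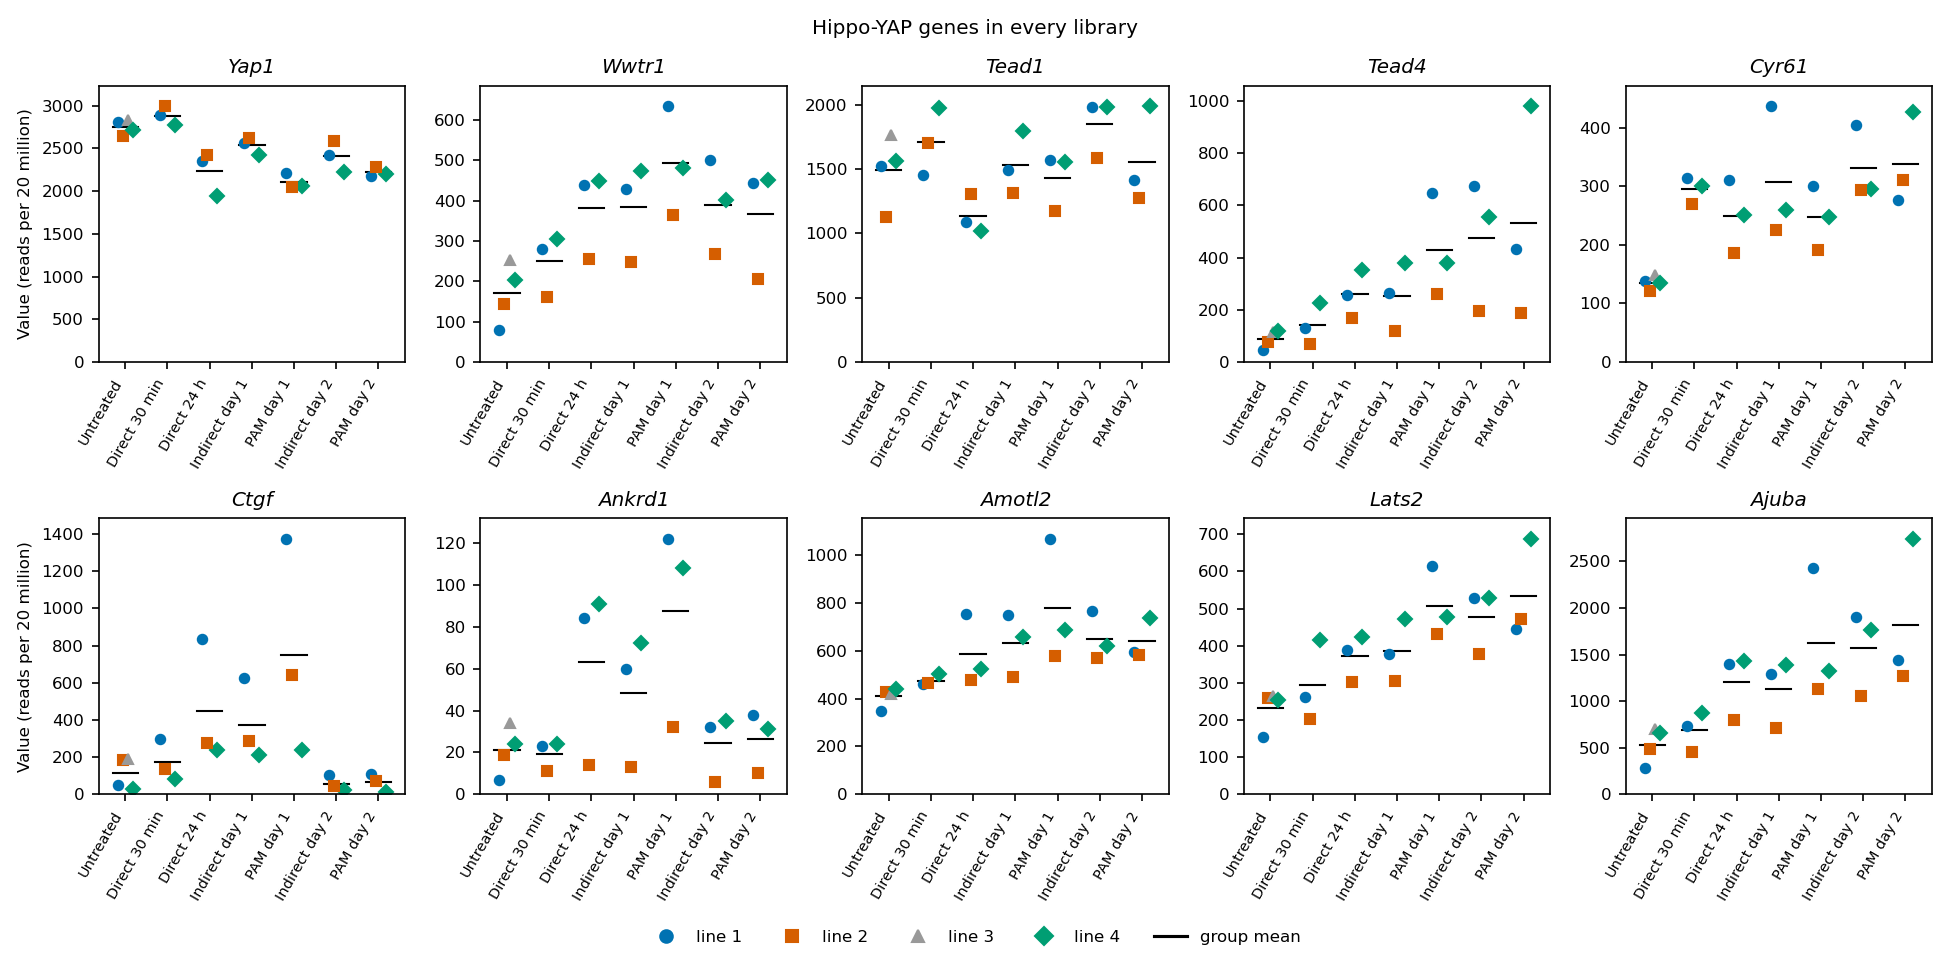
Normalized reads per 20 M (vertical axes, linear from 0) of the 10 genes in each of the 22 libraries; symbols give the organoid line, bars the group mean. Cyr61 is above all untreated libraries in each of the 18 treated ones, whereas Ctgf is above them in the 9 libraries with 24 h of exposure from day 1 and overlaps them after 30 min and from day 2.

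The coactivators moved apart. Yap1, which encodes YAP (chromosome 9, 7931999 to 8004596, minus strand, in GRCm38, as for all positions here), stood at 2808, 2647, 2829 and 2719 normalized reads in untreated lines 1 to 4, and at 1945 to 2620 (median 2355) in the 9 libraries exposed from day 1. The groups did not overlap, yet the difference was small: the log2 fold change was -0.27 ± 0.08 (SE), with an adjusted p of 0.0241 by limma's moderated test, short of the minimum fold. In PAM from day 1 it was -0.38 ± 0.07 (adjusted p = 0.00308), where the median of all genes was itself -0.13. With median-of-ratios scaling, which brought that median to -0.01, the difference of Yap1 after PAM from day 1 was -0.26 (adjusted p = 0.0192). Direct CAP for 30 min left Yap1 between 2775 and 2991, overlapping the untreated range, with a log2 fold change of 0.07 ± 0.07 (adjusted p = 0.546).

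Wwtr1, which encodes TAZ (chromosome 3, 57455649 to 57575910, minus strand), stood at 80, 145, 254 and 204 normalized reads in untreated lines 1 to 4. In lines 1, 2 and 4 it reached 438, 256 and 450 after direct CAP for 24 h, 430, 248 and 473 after indirect CAP from day 1, and 634, 365 and 481 after PAM from day 1. In all 6 treated groups line 2 was the lowest, and among these 9 libraries its indirect CAP library alone was within the untreated range. The log2 fold change over the 9 libraries was 1.36 ± 0.28 (adjusted p = 0.00289), or 2.57-fold. The call was lost when untreated line 1 (adjusted p = 0.0125) or untreated line 2 (0.0117) was left out, and without both the difference was 0.82 with an adjusted p of 0.0824. PAM from day 1 by itself also passed, at 1.61 ± 0.37 (adjusted p = 0.00944), while given from day 2 indirect CAP and PAM had 1.26 ± 0.38 (0.0277) and 1.13 ± 0.43 (0.0590).

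The TEAD factors, which carry YAP and TAZ to DNA, also differed between themselves. Tead1 (chromosome 7, 112679318 to 112906807, plus strand) ranged from 1126 to 1761 normalized reads in untreated libraries and from 1016 to 1793 (median 1309) in the 9 exposed from day 1, with a log2 fold change of -0.13 ± 0.15 (adjusted p = 0.530). Tead1 was lowest after direct CAP for 24 h, at 1091, 1303 and 1016 in lines 1, 2 and 4, below the 1453, 1703 and 1976 of the same lines after 30 min. That difference, -0.59 ± 0.15, had an adjusted p of 0.205, and 0.0422 with the line as a block.

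Tead4 (chromosome 6, 128224288 to 128300823, minus strand) stood at 46, 75, 115 and 119 normalized reads in untreated lines 1 to 4. After 30 min of direct CAP it was 131, 69 and 225 in lines 1, 2 and 4, and after 24 h 258, 170 and 352. Indirect CAP gave 264, 117 and 381 from day 1 and 676, 196 and 556 from day 2, and PAM 647, 259 and 380 from day 1 and 434, 186 and 979 from day 2. Each of these libraries of 24 h was above all untreated ones, except that of line 2 after indirect CAP from day 1, and line 2 was lowest in each group. Over the 9 libraries from day 1 the log2 fold change was 1.76 ± 0.37 (adjusted p = 0.00296), or 3.38-fold, and the call was lost when untreated line 1 (adjusted p = 0.0157) or untreated line 2 (0.0119) was left out. Without both it was 1.27 (0.0858). Tead4 also rose past the threshold in PAM from day 1 (2.25 ± 0.40, adjusted p = 0.00276) and, given from day 2, in indirect CAP (2.32 ± 0.47, 0.00500) and PAM (2.36 ± 0.55, 0.00935).

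Cyr61, which encodes the matricellular protein CCN1 (chromosome 3, 145646976 to 145649981, minus strand), had close untreated values, 138, 121, 148 and 135 normalized reads in lines 1 to 4. With 30 min of exposure to direct CAP it was 314, 270 and 300 in lines 1, 2 and 4, and with 24 h it was 311, 186 and 250. Indirect CAP gave 436, 225 and 260 from day 1 and 405, 293 and 296 from day 2. PAM gave 301, 191 and 248 from day 1 and 277, 311 and 426 from day 2. All 18 treated libraries were thus above all 4 untreated ones. Among 1-group comparisons Cyr61 passed the threshold when given from day 2, for indirect CAP (log2 fold change 1.27 ± 0.15, adjusted p = 0.000392) and for PAM (1.29 ± 0.18, 0.000993), and both calls held without any single library. Without both untreated libraries of lines 1 and 2 the first was 1.21 (0.00763) and the second 1.23 (0.0213), which is past 0.01. For direct CAP of 30 min the change was 1.12 ± 0.12 and the unadjusted p, which was under 0.05 for no other member, became an adjusted p of 0.0534. The 9 libraries from day 1 had 0.93 ± 0.19 (adjusted p = 0.00223), short of the minimum fold. With the day-2 groups added, the change was 1.07 (0.000408), which passed the threshold.

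Ctgf, which encodes the related protein CCN2 (chromosome 10, 24595442 to 24598683, plus strand), followed another course. It stood at 50, 183, 190 and 30 normalized reads in untreated lines 1 to 4, a wider range than that of Cyr61. In lines 1, 2 and 4 it was 300, 136 and 84 after direct CAP for 30 min and 833, 274 and 240 after 24 h. It was 625, 284 and 212 after indirect CAP from day 1 and 1374, 641 and 239 after PAM from day 1. All 9 libraries with 24 h of exposure starting at day 1 exceeded the highest untreated one, and the log2 fold change was 2.30 ± 0.57 (adjusted p = 0.00725), or 4.91-fold. This was the largest change of the 11 rows. The call was lost without untreated line 1 (adjusted p = 0.0323) or untreated line 4 (0.0344), and without line 1 after direct CAP for 24 h (0.0117), line 1 after indirect CAP from day 1 (0.0105) or line 2 after PAM from day 1 (0.0131). Without untreated lines 1 and 2 the difference was 2.46 (0.0509), and with the day-2 groups added it was 1.04 (0.395). No 1-group comparison of Ctgf passed, the nearest being PAM from day 1 at 2.79 ± 0.77 (0.0202).

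When indirect CAP or PAM was given from day 2, with medium made at day 1, the values of Ctgf were in or below the untreated range. Indirect CAP left 102, 44 and 22 normalized reads in lines 1, 2 and 4, and PAM left 110, 74 and 13. Against untreated, the log2 fold changes were -0.86 ± 0.74 (adjusted p = 0.373) and -0.82 ± 0.87 (0.463), and the ranges overlapped. Without line 4 of PAM from day 2 the latter was 0.08 (adjusted p = 0.940). The test between the days used treated libraries only. For indirect CAP, day 2 was lower than day 1 by a log2 fold change of -2.83 ± 0.60, or 7.09-fold, in each of the 3 lines, with an adjusted p of 0.0561 in the fit without lines and of 1.73e-05 with the line as a block, which passed the threshold. For PAM it was -3.61 ± 0.90, or 12.2-fold, in each of the 3 lines, with adjusted p of 0.0741 without lines and 0.0198 with the block. Within direct CAP, 24 h exceeded 30 min by 1.33 ± 0.58 in each line (adjusted p = 0.238, and 0.00479 with the block). In all 6 treated groups line 1 was the highest and line 4 the lowest for Ctgf.

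Reads of Ctgf may be shared with Gm15270, an annotated transcript on the opposite strand that covers 665 of its exon bases (23.2%). The strand setting of the counting is not given in the sources used here, so both cannot be told apart. Gm15270 reached up to 524 normalized reads, and its r with Ctgf over the 22 libraries was 0.997.

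**Figure D3:**
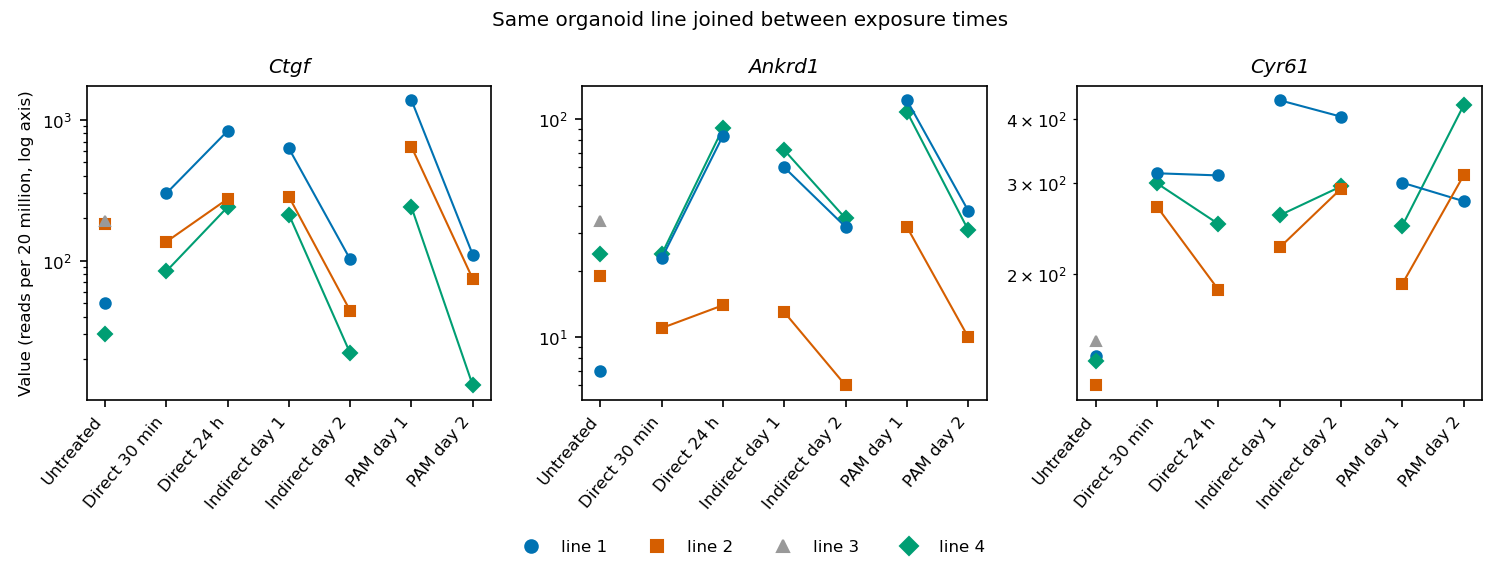
Normalized reads per 20 M (log axes) of Ctgf, Ankrd1 and Cyr61 by group; lines join the same organoid line between direct CAP of 30 min and 24 h, and between day 1 and day 2 for indirect CAP and for PAM. Ctgf is lower from day 2 than from day 1 in each line, at 102, 44 and 22 for indirect CAP, within or below the untreated values, while Cyr61 stays above the untreated libraries throughout.

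Ankrd1, a nuclear ankyrin repeat protein (chromosome 19, 36111961 to 36120099, minus strand), was the scarcest member. It stood at 7, 19, 34 and 24 normalized reads in untreated lines 1 to 4, at which a few reads weigh much. In lines 1 and 4 it was 84 and 91 after direct CAP for 24 h, 60 and 72 after indirect CAP from day 1, and 122 and 108 after PAM from day 1, above all untreated libraries. Line 2, at 14, 13 and 32, was within the untreated range in all these groups, so the groups overlapped. The log2 fold change over the 9 libraries was 1.45 ± 0.60 with an adjusted p of 0.0746. From day 2 the values were 32, 6 and 35 for indirect CAP and 38, 10 and 31 for PAM, with log2 fold changes of 0.07 ± 0.68 (adjusted p = 0.946) and 0.31 ± 0.60 (0.697). In each line Ankrd1 was lower from day 2 than from day 1, with a log2 fold change of -1.67 ± 0.66 for PAM (adjusted p = 0.167, and 0.0261 with the line as a block).

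Amotl2, an angiomotin-like scaffold that binds and restrains YAP (chromosome 9, 102716672 to 102733418, plus strand), ranged from 350 to 439 normalized reads in untreated libraries and from 477 to 1068 (median 659) in the 9 exposed from day 1. The groups did not overlap here nor for any of the 6 treated groups taken singly, in which Amotl2 lay between 460 and 501 after 30 min and reached its highest value in line 1 after PAM from day 1. Over these 9 libraries its log2 fold change was 0.66 ± 0.18 (adjusted p = 0.0119). For indirect CAP from day 2 it was 0.66 ± 0.13 (0.00422) and for PAM from day 2 0.64 ± 0.13 (0.00583), each short of the minimum fold. The largest change was that of PAM from day 1, at 0.88 ± 0.20 (0.00862), also short of it. With quantile scaling the latter was 1.03 (0.00379), which passed the threshold.

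Lats2, the kinase that inactivates YAP and TAZ (chromosome 14, 57689662 to 57758388, minus strand), stood at 153, 259, 264 and 255 normalized reads in untreated lines 1 to 4 and at 303 to 614 (median 424) in the 9 libraries from day 1. The groups did not overlap, and the log2 fold change was 0.86 ± 0.19 (adjusted p = 0.00372), short of the minimum fold. It rose past the threshold in PAM from day 1 (1.14 ± 0.22, adjusted p = 0.00403) and, given from day 2, in indirect CAP (1.05 ± 0.22, 0.00565) and PAM (1.20 ± 0.24, 0.00472). The row of the same name but another identifier, ENSMUSG00000114942, is a separate gene model in the GENCODE annotation whose exons are to 89.9% those of Lats2, so reads may have been split or dropped between them. The other 10.1% of its exon bases are shared with the gene Xpo4, so its reads may also come from Xpo4. Counts out of 11 rows include this row beside Lats2 and are thus not counts of 11 separate genes. It ranged from 238 to 298 in untreated libraries and from 306 to 516 in the 9 from day 1, again without overlap, and its log2 fold change was 0.47 ± 0.13 (adjusted p = 0.0134).

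Ajuba, a LIM-domain protein that binds LATS kinases and restrains them (chromosome 14, 54567472 to 54577558, minus strand), stood at 280, 487, 696 and 657 normalized reads in untreated lines 1 to 4. In lines 1, 2 and 4 it was 1404, 799 and 1426 after direct CAP for 24 h, 1294, 716 and 1392 after indirect CAP from day 1, and 2432, 1132 and 1319 after PAM from day 1. From day 2 it was 1901, 1050 and 1761 for indirect CAP and 1445, 1272 and 2743 for PAM. Line 2 was the lowest in each treated group, yet all 15 libraries with 24 h of exposure exceeded the untreated ones. After 30 min, at 735, 457 and 876, the groups overlapped. Over the 9 libraries the log2 fold change was 1.32 ± 0.28 (adjusted p = 0.00346), and the call was lost when untreated line 1 (0.0172) or untreated line 2 (0.0126) was left out. Without both it was 0.89 (0.0926). Ajuba also rose in PAM from day 1 (1.62 ± 0.36, 0.00751) and, given from day 2, in indirect CAP (1.60 ± 0.33, 0.00536) and PAM (1.78 ± 0.37, 0.00538).

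The 6 treated groups share the untreated libraries, so their comparisons with untreated are not independent. No member passed the threshold after 30 min or 24 h of direct CAP or after indirect CAP from day 1, where 0.00564%, 2.17% and 1.31% of all genes passed. With an unadjusted p under 0.05, the counts of members were 1, 10 and 8 of 11, against 24.9%, 32.6% and 38.6% of all genes, so that for 30 min lay below the share of all genes. In PAM from day 1, 4 of 11 rows passed (Wwtr1, Tead4, Lats2 and Ajuba) against 10.2% of all genes. In indirect CAP from day 2, 4 passed (Tead4, Cyr61, Lats2 and Ajuba) against 11.9%, and in PAM from day 2 the same 4 genes passed against 17.3%. All calls were rises. Without the minimum fold and at 0.05, the members passing were 0 and 3 after 30 min and 24 h of direct CAP, 3 and 10 after indirect CAP and PAM given from day 1, and 7 and 7 after the same given from day 2, against, in this order, 0.00564%, 17.3%, 20.6%, 41.8%, 43.8% and 47.6% of all genes. Rows without overlap with untreated were, in the same order, 2, 9, 7, 9, 8 and 7 of 11, against 23.6%, 30.7%, 34.4%, 46.8%, 48.5% and 53.4% of all genes. The share for 30 min, 2 of 11, was thus no higher than that of all genes.

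**Figure D4:**
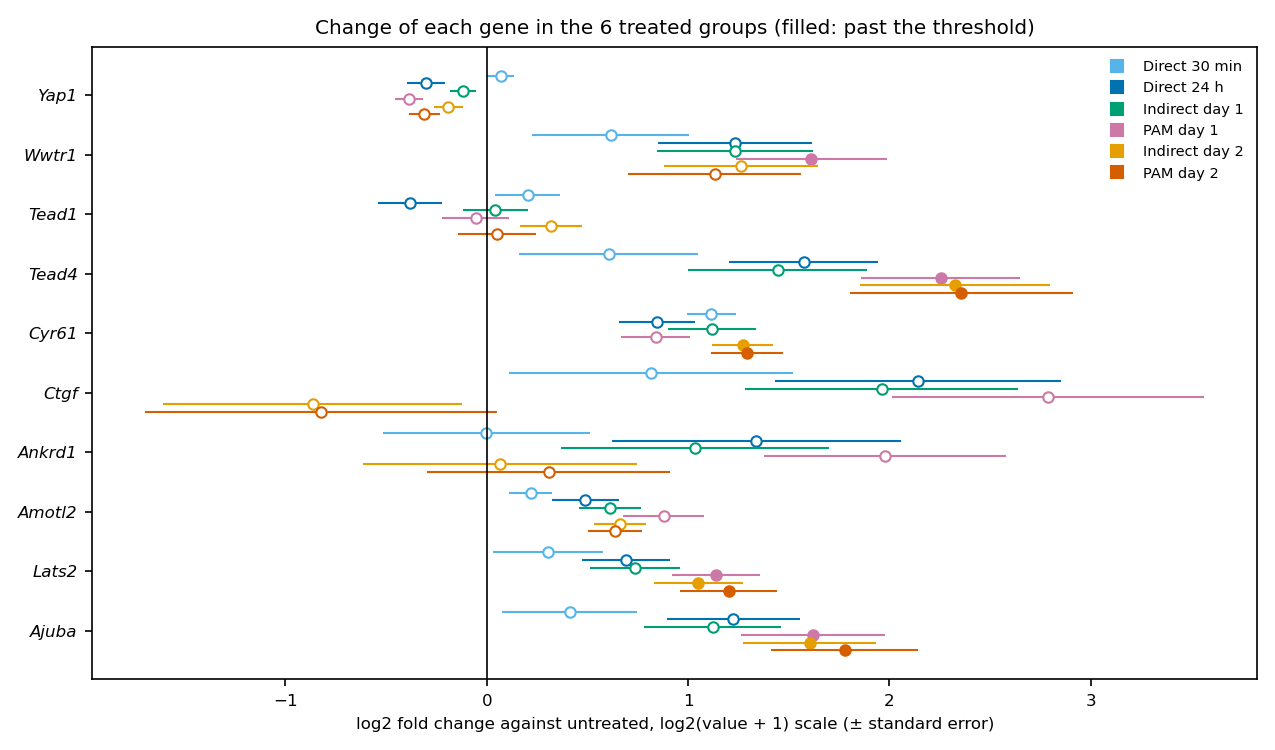
Log2 fold change against untreated on the log2(value + 1) scale (horizontal axis, bars ± SE) of the 10 genes in the 6 treated groups, by colour; filled circles passed the threshold. Tead4, Lats2 and Ajuba are past it in PAM from day 1 and in both groups from day 2. Ctgf is above 0 in the groups exposed from day 1. From day 2 it is at -0.86 ± 0.74 for indirect CAP and -0.82 ± 0.87 for PAM, with values that overlap the untreated ones.

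Apart from those of Cyr61, each of these 1-group calls was lost in 1 or more of the fits that left out a single library. A lost call did not always come with a smaller change. In PAM from day 1, Tead4 lost its call without the line 4 library of that group (adjusted p = 0.0115), with a log2 fold change of 2.29 beside 2.25 in the full fit. Wwtr1 lost it in 5 of 7 fits (without untreated line 2 or 4, or any of the 3 PAM libraries, adjusted p up to 0.0331), Ajuba in 4 (untreated line 2 or 4, PAM line 4 or 1, up to 0.0218) and Lats2 in 3 (untreated line 1, PAM line 4 or 1, up to 0.0145). In indirect CAP from day 2, Lats2 lost it in 5 of 7 fits (untreated line 1, 2 or 4, treated line 4 or 1, up to 0.0241), Tead4 in 4 (untreated line 1 or 2, treated line 4 or 1, up to 0.0208) and Ajuba in 3 (untreated line 2, treated line 4 or 1, up to 0.0233). In PAM from day 2, Tead4 lost it in 6 of 7 fits (all but without line 2 of that group, up to 0.0280), Lats2 in 4 (untreated line 2 or 4, treated line 4 or 2, up to 0.0115) and Ajuba in 3 (untreated line 2, treated line 4 or 1, up to 0.0167). All fold changes in these fits kept their direction. Other calls appeared without line 2: leaving it out of PAM from day 1 added Ankrd1 (2.58, adjusted p = 0.00883), Amotl2 (1.07, 0.00414) and Cyr61 (1.01, 0.00292), and leaving it out of direct CAP for 24 h added Cyr61 (1.04, 0.00920). Without both doubtful untreated libraries, the number of members past the threshold was 0 in PAM from day 1, 1 in indirect CAP from day 2 (Cyr61) and 0 in PAM from day 2. With fewer untreated libraries, calls of other genes may be lost as well. The share of all genes is not given for the fits in this paragraph, so the counts describe the members alone. With the line as a block, which rests on those labels, PAM from day 1 had 0 calls (adjusted p 0.0134 for Tead4, 0.0162 for Wwtr1, 0.0213 for Lats2 and 0.0264 for Ajuba). Under the block indirect CAP from day 2 kept Cyr61 alone (Ajuba 0.0102, Tead4 0.0110, Lats2 0.0172) and PAM from day 2 kept all 4.

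Between treated groups, no member passed the threshold in the fit without lines. The share of all genes was 0.0111% for indirect CAP from day 2 against day 1 and 0% for the other 6 such comparisons. The fit without lines thus made hardly any call. With the line as a block, the share of all genes is not given here, so the blocked values of single members above stand without it. By limma 3 of 11 rows had an unadjusted p under 0.05 for 24 h against 30 min of direct CAP (21.4% of all genes), 2 for PAM of day 2 against day 1 (26.8%) and 0 for PAM against indirect CAP of day 2 (9.48%). There was 1 such row each for indirect CAP of day 2 against day 1 (21.7% of all genes), for PAM against indirect CAP of day 1 (21.7%), and for indirect CAP (6.95%) and PAM (10.4%) of day 1 against direct CAP. These counts are near or below the shares of all genes. The difference of indirect CAP (day 1) from direct CAP (24 h) ranged from -0.30 (Ankrd1) to 0.42 (Tead1) on the log2 scale over the 11 rows. That of PAM (day 1) from direct CAP (24 h) ranged from -0.08 (Yap1) to 0.68 (Tead4), that of PAM from indirect CAP, both given from day 1, from -0.28 (Cyr61) to 0.94 (Ankrd1), and the same with both given from day 2 from -0.27 (Tead1) to 0.24 (Ankrd1). The unadjusted p was under 0.05 for Yap1 between PAM and indirect CAP of day 1 (-0.27 ± 0.08, adjusted p = 0.170), Tead1 between indirect and direct CAP (0.42 ± 0.15, 0.629) and Lats2 between PAM and direct CAP (0.45 ± 0.19, 0.473), and in these the groups did not overlap. For Ctgf the 95% interval of the difference between PAM and indirect CAP from day 1, -0.73 to 2.38, leaves room for a large difference. Between day 2 and day 1 the other 10 rows ranged from -0.97 (Ankrd1) to 0.88 (Tead4) for indirect CAP and from -1.67 (Ankrd1) to 0.45 (Cyr61) for PAM, in contrast to the values of Ctgf.

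Across the 22 libraries, a description in which lines and groups are shared between points, Tead4, Ajuba, Lats2 and Wwtr1 ran close together, with Pearson's r of 0.97 for Tead4 and Ajuba, 0.95 for Tead4 and Lats2 and 0.91 for Tead4 and Wwtr1. Ctgf stood apart from them, at -0.02 with Tead4 and 0.02 with Cyr61, and at 0.49 with Ankrd1. Among 19370 genes, those most alike were Npnt (0.98), Myof (0.96) and Serpinb6b (0.96) for Wwtr1, and Ajuba, Ier3 (0.97) and Cd2ap (0.97) for Tead4. For Ajuba they were Tead4, Epha2 (0.97) and Lats2 (0.97), and for Lats2 its second row (0.98), Epha2 (0.98) and Sh3tc1 (0.97). Cyr61 was most alike to the immediate early gene Fos (0.90), then Lama5 (0.87) and Fermt3 (0.87), and Ctgf to Gm15270, Mcam (0.88) and Rfk (0.88). For Ankrd1 they were Map6 (0.92), S100a7a (0.92) and Cav2 (0.92), for Amotl2 Gm21949 (0.90), Fgd3 (0.90) and Tjp1 (0.90), for Yap1 Hmbox1 (0.96), Qser1 (0.95) and Baz1b (0.94), and for Tead1 Rnf214 (0.85), Vac14 (0.83) and 6330408A02Rik (0.83).

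Other genes of the pathway were taken from 4 lists. Of 17 further genes of a published YAP target list, 13 could be tested over the 9 libraries from day 1, and 5 rose and 1 fell past the threshold (6.34% of all genes did either). Their median log2 fold change was 1.02 beside -0.05 for all genes. Nt5e, the ecto-enzyme CD73, rose most, from between 16 and 46 normalized reads in untreated libraries to between 248 and 948 (median 418), with no overlap and a log2 fold change of 3.82 ± 0.35 (adjusted p = 1.39e-05). It kept its call in all 13 fits without 1 library and without untreated lines 1 and 2 (3.26, adjusted p = 0.00130). F3, which encodes tissue factor, rose from between 127 and 460 to between 704 and 3610 (median 1843), by 2.63 ± 0.48 (0.00138), and kept its call without any single library but not without untreated lines 1 and 2 (1.88, 0.0548). Both also rose from day 2: Nt5e had 3.49 ± 0.44 (adjusted p = 0.000495) for indirect CAP and 3.95 ± 0.40 (0.000400) for PAM, and F3 2.68 ± 0.49 (0.00301) and 3.31 ± 0.56 (0.00224). Rbms3, which encodes an RNA-binding protein, went from between 61 and 108 to between 9 and 54 normalized reads and fell by 1.48 on the log2 scale (SE 0.39, adjusted p = 0.00999), and lost its call in 9 of 13 fits without 1 library, among them all 4 without an untreated one (adjusted p up to 0.0443), with the line as a block (0.0186), and without untreated lines 1 and 2 (-1.30, adjusted p = 0.119). A further 4 of the 17 genes were too low to test.

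Of 11 YAP and TEAD partners, 10 were tested, with a median of 0.19, and 2 rose and 1 fell, while 6.34% of all genes did either. Amotl1, the other angiomotin-like protein, rose from between 11 and 104 normalized reads to between 85 and 657 (median 243), by 2.61 ± 0.54 (adjusted p = 0.00267), with groups that overlapped. Its call was lost without untreated line 1 (0.0126) or line 2 (0.0124), and without both the difference was 1.52 (0.0871). Ptpn14, a phosphatase that binds YAP and is also on the target list, rose from between 230 and 403 to between 503 and 1078 (median 600), by 1.02 ± 0.21 (0.00284). It sat at the minimum fold and lost its call in 6 of 13 fits without 1 library (untreated line 2 or 4, line 1 of each of the 3 treated groups, or line 4 of indirect CAP, log2 fold change down to 0.85), and without untreated lines 1 and 2 (1.12, adjusted p = 0.0336). Like Ctgf, Ptpn14 was in or below the untreated range in most libraries from day 2, at 298 to 562 for indirect CAP and 193 to 360 for PAM, with log2 fold changes of 0.20 ± 0.26 (0.563) and -0.41 ± 0.27 (0.235). Tead2, another TEAD factor, fell from between 288 and 640 to between 63 and 257 (median 130), by 1.51 on the log2 scale (SE 0.36, adjusted p = 0.00645). Its call was lost in 7 of 13 fits, among them all 4 without an untreated library (adjusted p up to 0.0327), and without untreated lines 1 and 2 it was -1.27 (0.0920). From day 2 Tead2 also fell against untreated, by 2.16 on the log2 scale for indirect CAP (adjusted p = 0.00113) and by 3.17 for PAM (0.000439), opposite in direction to Tead4.

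Among 21 Hippo kinases and upstream regulators, 20 were tested and 1 passed, with a median of 0.05. Fat4, an atypical cadherin, fell from between 33 and 49 normalized reads in untreated libraries to between 2 and 27 (median 10), without overlap, by 2.08 on the log2 scale (SE 0.52, adjusted p = 0.00754). Its call was lost with the line as a block (0.0192) and in 8 of 13 fits without 1 library, among them all 4 without an untreated library (adjusted p up to 0.0279), and without untreated lines 1 and 2 it was -2.13 (0.0740). The count of 1 in 20 is near the 6.34% of all genes. The MST kinases Stk4 and Stk3 had log2 fold changes of 0.05 ± 0.06 (adjusted p = 0.592) and 0.09 ± 0.10 (0.520). Of 13 actin and SRF genes, 10 were tested and 1 rose, with a median of 0.30. This count is also near the 6.34% of all genes. Cnn2, an actin-binding calponin, rose by 1.14 ± 0.28 (adjusted p = 0.00736), from between 372 and 635 to between 581 and 2010 (median 1098), and lost its call in 9 of 13 fits without 1 library, among them all 4 without an untreated one (adjusted p up to 0.0340), and without untreated lines 1 and 2 (0.90, 0.129).

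**Figure D5:**
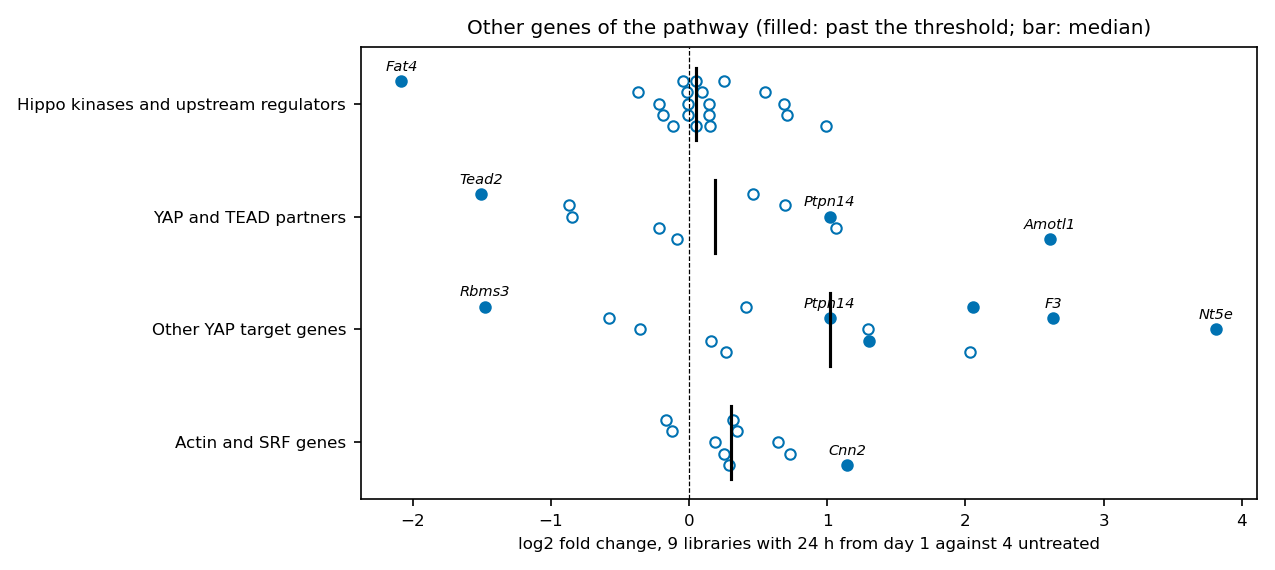
Log2 fold change of the tested genes of 4 pathway lists (rows) in the 9 libraries with 24 h of exposure from day 1 against 4 untreated (horizontal axis); filled circles passed the threshold, vertical bars are list medians and the genes described are named. The median lies at 1.02 for the other YAP target genes and at 0.05 for the Hippo kinases and upstream regulators.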

How the data were processed

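RNA from 22 organoid cultures was sequenced as paired-end reads. Per the labels, total RNA was made into libraries with the Ovation SoLo kit (the study's methods also name NEBNext), and the submitters' processing notes name Trimmomatic 0.36, STAR 2.5.3a, HTSeq 0.9.1 and GRCm38.p4. The deposited values are a score: the authors scaled the read counts to a total of 20 M per library and rounded them to whole numbers (the unit CP20M). The strand setting of the counting is not given in the sources used here. The study's legends describe CP20M as per kilobase of transcript, but the deposited values carry no division by length: in the library estimated at 19.38 M reads, 4 whole numbers up to 100 that scaling to 20 M skips were held by 0 genes with exons under 1 kb, 0 of 1 to 3 kb and 0 over 3 kb, while 7 neighbouring numbers were held by 1567, 1060 and 699. The deposited table of 52636 rows was used as it stood, with totals of 20007540 to 20016513.

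The test was that of limma 3.58.1 in R 4.3.3 (trended empirical Bayes) on log2(value + 1), fitted to the groups compared, over genes with a value of at least 10 in 3 or more of the fitted libraries. P-values are two-sided and Benjamini-Hochberg adjusted over all genes tested. As in the study, a gene passed the threshold when its adjusted p was under 0.01 and its log2 fold change was 1 or more in size. The pipeline was tested on simulated data. The 14 comparisons comprise the pooled one, 6 of single treated groups with untreated and 7 between treated groups. The members and the pathway and marker lists were chosen with earlier results of these data known. From each pathway list, the genes named were the 2 largest rises and the 2 largest falls past the threshold in the pooled comparison. For each member, the 3 genes with the highest r over the 22 libraries were named. Alternatives were a pseudocount of 10, no filter, quantile and median-of-ratios scaling, a looser threshold, the line as a replicate block, one fit over all 7 groups, all 15 libraries with 24 h of exposure, and leaving out libraries.

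The line numbers pair the samples, since each line comes from 1 mouse. Deviations from group means correlated with a median r of 0.564 (lowest 0.219) over 45 pairs of treated libraries of the same line and -0.330 over 90 pairs of different lines. Untreated line 4 gave 0.597 with treated line 4, but untreated line 1 gave 0.075 and untreated line 2 gave 0.132 with their own lines. Exon positions and overlaps came from GENCODE vM21, in which 52403 of 52636 identifiers (99.6%) were found, and promoter windows from RefSeq (GRCm38.p6). Promoter windows of Ctgf, Tead1 and Tead4 were not used here. No 2 libraries were copies of each other.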

Additional observations from a re-analysis of the deposited data

Results flagged for a closer look

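Of 22 sets of values tested for a single distant sample (10 genes and the second Lats2 row, in the 4 untreated libraries and in the 9 exposed for 24 h from day 1), 5 had one. The chance rate of about 1 in 20 holds for independent values. These libraries share lines and the sets share libraries, so no excess can be read from the count. Line 1 after PAM from day 1 was far above the other 8 libraries for Tead4 (647, with 0.502 of the whole range between it and the next), Ajuba (2432, 0.586) and Amotl2 (1068, 0.535). Line 1 after indirect CAP from day 1 was far above them for Cyr61 (436, 0.500). Among untreated libraries, that labelled line 1 was far below the others for Lats2 (153, 0.919).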

How the results depend on the processing

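Without the untreated libraries of lines 1 and 2, an alternative chosen after seeing the data, no member was past the threshold in the pooled comparison (0), PAM from day 1 (0) or PAM from day 2 (0), and 1 was in indirect CAP from day 2. The listed genes then past it numbered 0 Hippo kinases and regulators, 0 partners, 1 other YAP target and 0 actin and SRF genes. Apart from the looser threshold, the share of all genes is not given for these settings, so the counts describe the members and lists alone. Leaving out 1 library gave 0 to 4 members in the pooled comparison, 0 to 6 in PAM from day 1, 1 to 4 in indirect CAP from day 2, 1 to 3 in PAM from day 2, 0 to 1 in direct CAP for 24 h and 0 to 0 in the others, and in the lists 0 to 1 Hippo kinases, 0 to 3 partners, 4 to 7 other targets and 0 to 1 actin genes. An adjusted p under 0.05 without a minimum fold gave 9 members pooled, 3 in direct CAP for 24 h, 3 in indirect CAP from day 1, 10 in PAM from day 1, 7 in indirect CAP from day 2 and 7 in PAM from day 2. In the pooled comparison it gave 8 of 20 tested Hippo kinases, 7 of 10 partners, 10 of 13 other targets and 6 of 10 actin genes. The share of all genes there was 33.5% in either direction, and that of the Hippo kinases is near it. With no filter, PAM from day 1 had 2 members, and the lists 0 Hippo kinases and 2 actin genes. With the line as a replicate block, PAM from day 1 had 0 members, indirect CAP from day 2 had 1, direct CAP for 24 h against 30 min had 1, indirect CAP from day 2 against day 1 had 1, and the Hippo kinases 0. Other than these, Rbms3 (adjusted p = 0.0186) and the Fat4 call counted here, the block changed no call of a member or named gene. The fit over all 7 groups gave 1 member (Cyr61) in indirect CAP from day 1 and 1 (Ctgf, adjusted p = 0.00716) in PAM from day 2 against day 1. Some values turned direction, none of them past the threshold. Ankrd1 after 30 min of direct CAP was 0.28 under the block and -0.43 to 0.34 without 1 library, and Ajuba was -0.024 there without untreated lines 1 and 2. In indirect CAP from day 1, Tead1 was -0.13 without these lines and -0.087 to 0.15 without 1 library. In PAM from day 1, Tead1 was 0.016 under quantile scaling, 0.067 under median-of-ratios scaling, 0.032 under the block and -0.18 to 0.082 without 1 library. In indirect CAP from day 2, Ankrd1 was -0.27 under quantile scaling, -0.55 without untreated lines 1 and 2 and -0.36 to 0.83 without 1 library. In PAM from day 2, Tead1 was -0.12 and Ankrd1 -0.30 without untreated lines 1 and 2, and without 1 library Tead1 was -0.14 to 0.18, Ankrd1 -0.12 to 0.87 and Ctgf -1.41 to 0.080. The cause of these changes was not tested. Median-of-ratios scaling moved the all-gene median of the log2 fold changes from -0.13 to -0.01 in PAM from day 1 and from -0.12 to -0.02 in PAM from day 2. At a value of 10 or so, as for Ankrd1, a few reads set the fold change.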
